A study of Mus musculus with 7 samples.

Results

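The exons described here belong to mouse genes with 30 or more numbered exons that were well counted in RNA from the CA2 area of the hippocampus. Of 41725 genes in the exon counts, 1090 had a highest exon number of 30 or more, and 647 of these had at least 100 summed normalized counts in each of the 4 libraries. The other 443 long genes were below that minimum in at least 1 library. The 647 genes held 27599 exons out of 264860 numbered exons, counted in 40418 of the 437023 pieces into which alternative borders cut the exons. A piece is the stretch between neighboring borders, and each exon was represented by its highest piece. The median gene had 37 exons, 398 genes had 30 to 39, 188 had 40 to 59 and 61 had 60 or more. Members were chosen by exon number and by summed counts over the gene, never by the position of the counts. There were 53 counted genes with exactly 30 exons, led by *Abr*, *Kif5c* and *Prrc2a*, and 59 with 29, led by *Kif5a*, *Uba1* and *Rapgef5*. Closest above the count minimum was *Thsd7b*, with 101 summed counts in its lowest library, and closest below it was *Tenm1*, with 99.7.

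All tissue came from untreated male Amigo2-GFP C57BL/6 mice aged 6 weeks, in which a GFP transgene labels CA2 cells, and was collected by laser capture microdissection. RNA was extracted with the QIAGEN kit (higher RNA integrity) or with the PicoPure kit (lower integrity), and libraries were made with the NuGEN kit or the Clontech SMARTer kit. With 1 library per combination there were 4 libraries. Values are given in a fixed order, NuGEN before Clontech and within each kit QIAGEN before PicoPure. In both extraction protocols the captured samples of a region were combined before purification. The libraries shared the RNA input and the number of PCR cycles. They differed in when ribosomal RNA was removed, in the poly-dT primers that the NuGEN kit adds to random hexamers, and in fragment length, which was greater in the unsheared NuGEN libraries, so these, and the depth, cannot be told apart from the kit. Nothing in the labels says that the extracts came from separate animals. P-values therefore measure the spread between these 4 libraries only, and may be technical.

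Summed over pieces, the exon counts came to 8682712, 9285130, 16701803 and 15390814 reads in that order. A read that covers several pieces may be counted more than once. The 647 genes took 11.8, 14.1, 17.5 and 19.6% of the highest-piece counts. The CA2 markers *Rgs14*, *Amigo2*, *Necab2*, *Map3k15* and *Cacng5* summed to between 8773 and 9509 normalized counts per library, so the labelled tissue was present in all 4. Markers of oligodendrocytes summed to 6658 and 4120 with NuGEN and 4255 and 2902 with Clontech (QIAGEN first, then PicoPure), and all 6 were above 0.

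Genes with many exons mostly encode very large proteins. In neurons these include spectrins and ankyrins under the membrane, motor proteins, calcium channels, scaffolds of the synapse and large ubiquitin ligases. Their transcripts are long, so the ends of the message lie far apart. In library making, cDNA is synthesized from primers along the RNA, and where these anneal, where synthesis stops and how the ends are copied set how many reads each exon receives. An even library would give all exons of a transcript a similar number of reads per base.

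Exon numbers run from the 5′ end, so exon 1 is the most upstream annotated exon and need not be used in CA2. The table's numbers are those of a merged gene model. Of 625 symbols found once in GENCODE vM21, 102 (16.3%) had under 30 merged exons there, and 41 had no more than 50% of the table's number, for example *Acsf3* with 443 numbered exons against 11, *Ate1* with 186 against 14 and *Emc1* with 132 against 24. *Kif5c*, *Atxn2*, *Atrn* and *Prrc2a* missed by little, with 29 merged exons. For symbols such as *Acsf3* the numbered series runs over more than the annotated gene. For 268 genes (41.4%) the number of exons was the same in both, and these were placed on GRCm38 (mm10).

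Exons of the same gene could differ in opposite directions between the kits. An example is *R3hdm2*, which encodes a protein with an R3H domain. Both counted pieces shown here are coding, and the gene could be placed. The counted piece of *R3hdm2* exon 22 is at chr10:127481693-127481755 (+ strand, 63 bases) and that of exon 17 at chr10:127462206-127462283 (+ strand, 78 bases). Sequences are GRCm38 transcript sequence from GENCODE vM21, 5′ to 3′ on the strand of the gene. No letters are capitalized, since the count covers the whole stretch.
R3hdm2 exon 22, larger share in NuGEN: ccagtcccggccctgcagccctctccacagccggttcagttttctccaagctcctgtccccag
R3hdm2 exon 17, larger share in Clontech: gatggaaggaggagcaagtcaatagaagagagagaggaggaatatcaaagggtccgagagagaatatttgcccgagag

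The counted piece of *R3hdm2* exon 22 had 414 and 350 normalized counts with NuGEN, where Clontech had 20.6 and 0.668. That of exon 17, 5 numbers upstream, had 24.5 and 55.7 with NuGEN and 257 and 335 with Clontech. So the kit with nearly all reads on either piece had few on the other, in both RNA samples. The GC content of the pieces was 65.1% for exon 22 and 47.4% for exon 17. In *R3hdm2* 8 of 21 annotated transcripts hold each piece whole. A check of GC content over all exons tested is void, because only 34.7% of them could be placed.

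To ask where along long genes the kits differed, exons were grouped in deciles of the exon number, 10 equal bins from 5′ to 3′, and the mean count per exon in each decile was divided by the mean over all exons of the gene. In decile 1, at the 5′ end, the median relative coverage over the 647 genes was 1.01 and 1.10 for NuGEN, and 0.503 and 0.547 for Clontech. NuGEN was thus 2.01 times Clontech there. From decile 2 the order was the other way, with 0.624 and 0.701 against 0.827 and 0.793 in decile 3, and 0.701 and 0.747 against 0.931 and 0.906 in decile 5. In decile 10, at the 3′ end, the 4 libraries came together at 1.29, 1.32, 1.27 and 1.33. Per exon, all 4 were higher there than in any other decile. Per kilobase, in the genes that could be placed, this held in NuGEN QIAGEN alone. Decile 10 then had 0.963 and 0.885 for NuGEN and 0.924 and 0.873 for Clontech, beside 0.997 for NuGEN PicoPure in decile 1, 0.968 for Clontech QIAGEN in decile 5 and 0.957 for Clontech PicoPure in decile 4. Without first and last exons it held in 0 of the 4 libraries. With the medians of deciles 4 to 7 averaged, NuGEN was 0.837 times Clontech, and in decile 10 it was 1.00 times.

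**Figure D1:**
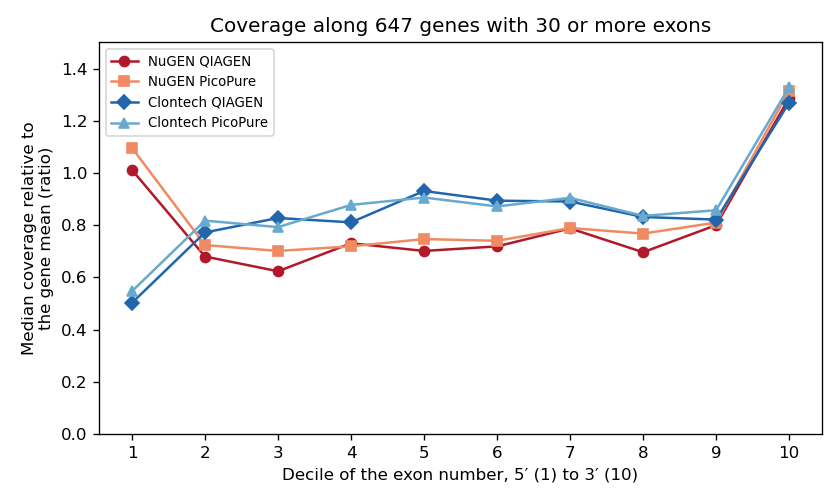
Median relative coverage (mean count per exon of a decile over the gene mean, y axis) against the decile of the exon number from 5′ to 3′ (x axis) in 647 genes, with a line and marker for each library. The NuGEN libraries start at 1.01 and 1.10 and the Clontech libraries at 0.503 and 0.547, and all 4 end between 1.27 and 1.33.

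Gene by gene, relative coverage of decile 1 was higher in both NuGEN libraries than in both Clontech libraries in 347 of 647 genes (53.6%, against 61.7% of the 4112 genes with 10 or more exons), and lower in both in 64 genes (9.89%, against 5.42%). In decile 10 the counts were 181 (28.0%, against 22.1%) and 178 (27.5%, against 36%). In deciles 4 to 7 Clontech was above NuGEN in 208 to 221 genes and NuGEN above Clontech in 114 to 133. The PicoPure and QIAGEN libraries separated in this way in fewer genes in every decile, at most 99 in a single direction. The counts of deciles 4 to 7 and those of RNA were not made over all 4112 genes. They are not read as particular to long genes.

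The same was seen at single exons. Exon 1 had a median of 1.21 and 1.31 times the gene mean with NuGEN and 0.200 and 0.315 with Clontech. At exon 2 the values were 0.534 and 0.760 against 0.194 and 0.347, and at exon 3 they were 0.464 and 0.668 against 0.384 and 0.493. By exon 7 the order had turned, with 0.411 and 0.510 against 0.597 and 0.670. The last exon had 2.19 and 2.23 with NuGEN and 2.02 and 2.13 with Clontech, and the next to last 0.654 and 0.754 against 0.690 and 0.768. As a share of the gene's exon counts, the median exon 1 took 2.92 and 3.17% with NuGEN and 0.495 and 0.758% with Clontech. It was at 0 in 163, 116, 240 and 183 genes in the 4 libraries. In the 3465 genes with 10 to 29 exons, decile 1 had 1.36 and 1.20 with NuGEN and 0.326 and 0.353 with Clontech, a ratio of 3.77. The difference between these and the longer genes was not tested, and a decile there holds fewer exons.

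Exons of long genes were often not covered. Of 27599 exons, 71.2% were above 0 in NuGEN QIAGEN, 78.9% in NuGEN PicoPure, 76.3% in Clontech QIAGEN and 83.5% in Clontech PicoPure. After thinning to the smallest library the shares were 71.2, 78.7, 74.7 and 82.7%. In both kits the PicoPure library had more exons above 0 than the QIAGEN library. In all, 15961 exons were above 0 in all 4 libraries and 2320 in none. Both NuGEN libraries counted 354 exons that both Clontech libraries had at 0, and 806 exons were the reverse. At 10 or more counts in both libraries of the kit these numbers were 115 and 271. These 4 numbers are without thinning, and the Clontech libraries had more reads. A read was worth 1.53 and 1.30 counts with NuGEN and 0.625 and 0.668 with Clontech, so 10 counts are fewer reads with NuGEN. The part of depth in these numbers was not tested, and they were not counted over all exons.

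Next, the share of each exon in its gene was compared between kits across all exons with a mean of at least 10 normalized counts, with the RNA sample as a second term. Of the 27599 exons, 18026 in 646 genes passed that filter. With the limma test and an adjusted p under 0.05, 1548 exons (8.59%) held a larger share in the NuGEN libraries and 1581 (8.77%) a larger share in the Clontech libraries. Across all 73689 exons tested the shares were 10.3% and 10%, so long genes were near the background in both directions. Of the 3129 exons called, 3114 went the same way in both RNA samples. They lay in 449 genes, and 337 genes had exons in both directions. The balance of directions moved with single libraries. Without NuGEN QIAGEN 592 exons were higher with NuGEN and 1114 with Clontech, and without NuGEN PicoPure 696 and 1467. Without Clontech QIAGEN it was 944 and 458, and without Clontech PicoPure 1050 and 472. This fit had 1 residual degree of freedom and infinite prior degrees of freedom, so the spread came from all exons of like level. An exon's own spread thus has no weight.

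The place of the called exons was uneven. Calls by place were not counted in other genes, so they are not read as particular to long genes. In genes with 10 to 29 exons the per-gene 5′ end was higher with NuGEN in 30.6%, beside 19.9% of long genes. An exon near 0 in 1 kit could pass the filter on the mean through the other kit. Of 418 first exons tested, 167 (39.95%) held a larger share with NuGEN and 6 (1.44%) with Clontech. Of 363 second exons, 87 (23.97%) were higher with NuGEN and 18 (4.96%) with Clontech. In decile 1 as a whole it was 337 against 66 of 1484. In decile 5 it was 106 (5.57%) against 194 (10.2%) of 1902, and deciles 2 to 8 all had more exons higher with Clontech than with NuGEN. Of 540 last exons, 84 (15.6%) were higher with NuGEN and 55 (10.2%) with Clontech. The median log2 difference in share (NuGEN minus Clontech) was 1.94 for exon 1, 0.95 for exon 2 and -0.36 in decile 5.

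**Figure D2:**
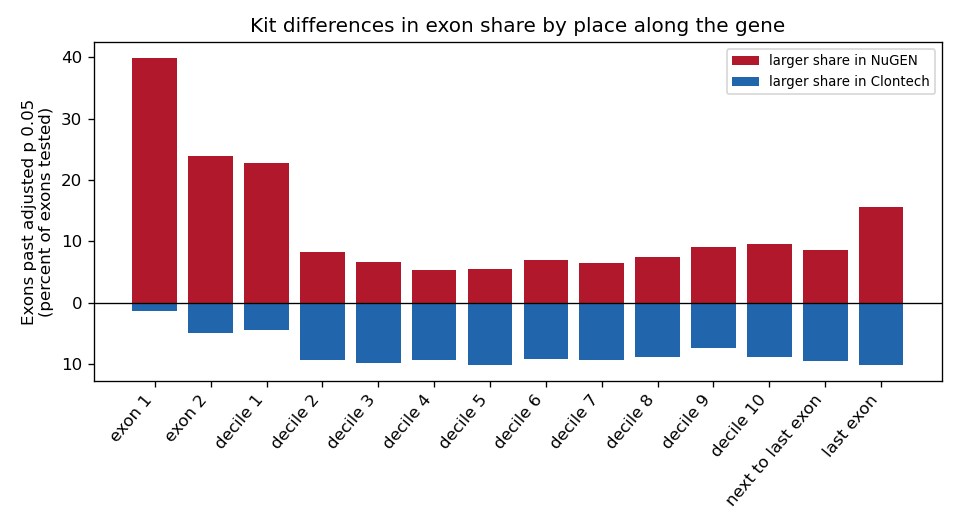
Percent of tested exons (y axis) past an adjusted p of 0.05 by place along the gene (x axis), with exons of a larger share in NuGEN drawn upward and those of a larger share in Clontech downward. Among these places in long genes, exon 1 stands out with 39.95% upward and 1.44% downward. Other genes were not counted by place.

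Among exons with a mean of at least 100 counts, 5 of the 10 largest differences toward NuGEN were first exons. Exon 1 of *Sptbn1*, which encodes beta-II spectrin of the membrane skeleton, had 1095 and 949 counts with NuGEN and 51.2 and 49.5 with Clontech, or 8.22 and 6.81% of the gene against 0.242 and 0.229%. All 4 values were close within a kit and the groups lay far apart (log2 difference 4.96, standard error 0.27, limma adjusted p = 7e-73). The counted piece is at chr11:30267948-30268169 of GRCm38 on the - strand, outside the annotated coding sequence. Exon 1 of *Ptprg*, a receptor tyrosine phosphatase, had 195 and 284 counts against 0 and 24.1, and took 18.2 and 20.96% of the gene with NuGEN (log2 6.01, standard error 0.77). The first exons of *Gtf2i*, a transcription factor gene (454 and 156 against 8.12 and 10.02), of *Cacna1e*, which encodes the pore subunit of R-type calcium channels (330 and 178 against 3.12 and 35.4), and of the chromatin remodeller *Chd4* (262 and 280 against 11.2 and 7.35) were also higher with NuGEN. Exon 3 of *Eif4g1*, the scaffold of the cap-binding translation initiation complex, had 581 and 391 counts against 11.9 and 13.4 (log2 4.91, standard error 0.45). These are the counts of its highest piece. With pieces summed the difference of this exon was 3.42, and with the highest piece in each library 3.52.

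The other exons of this group were inner ones. Exon 28 of 40 in *Chd3*, another remodeller, had 524 and 365 counts in the NuGEN libraries, where Clontech gave 0 and 11.4 (log2 6.62, standard error 0.70, limma adjusted p = 8.9e-19). With a pseudocount of 10 in place of 1 its difference was 4.61, below 4.73 for *Sptbn1* exon 1, and without Clontech QIAGEN it was 4.73, below 7.37 for *R3hdm2* exon 22. Exon 9 of *Celf2*, which encodes a splicing regulator, had 158 and 377 against 0.625 and 12.7. *Celf2* has 30 numbered exons and 27 merged exons in GENCODE vM21. Exon 7 of *Atp2b2*, a plasma membrane calcium pump gene, had 541 and 315 against 17.5 and 26.7, and *R3hdm2* exon 22, whose sequence is printed above, completed the 10 (log2 5.39, standard error 0.62).

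None of the 10 largest differences toward Clontech was a first exon. Exon 15 of *Srcap*, which encodes a chromatin remodelling ATPase, had 218 and 257 counts with Clontech QIAGEN and Clontech PicoPure and 0 and 37.6 with NuGEN (log2 -5.18, standard error 0.72, limma adjusted p = 2.8e-11). Exon 19 of *Arpp21*, a cAMP-regulated phosphoprotein gene, had 214 and 209.8 against 4.60 and 45.4, and exon 6 of *Kif5c*, a neuronal kinesin heavy chain gene, 212 and 211 against 3.07 and 22.0. In these exons the Clontech libraries were near each other while the NuGEN libraries differed several times between RNA samples. The calls were lost without a Clontech library in *Srcap* exon 15 (adjusted p = 0.057 and 0.092 without Clontech QIAGEN or Clontech PicoPure) and *Kif5c* exon 6 (0.058 without Clontech PicoPure).

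Neighboring exons could share a direction. Exons 11, 12 and 13 of *Pde2a*, which encodes a cGMP-stimulated phosphodiesterase, were all among these 10. They had 159 to 223 counts in Clontech QIAGEN and 213 to 267 in Clontech PicoPure, and 6.48 to 26.1 in the NuGEN libraries. Exon 11 of *Atxn2*, which encodes an RNA-binding protein with a polyglutamine tract, had 207 and 172 against 16.9 and 16.8. Exon 17 of *R3hdm2* had a log2 difference of -3.55 (standard error 0.39).

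**Figure D3:**
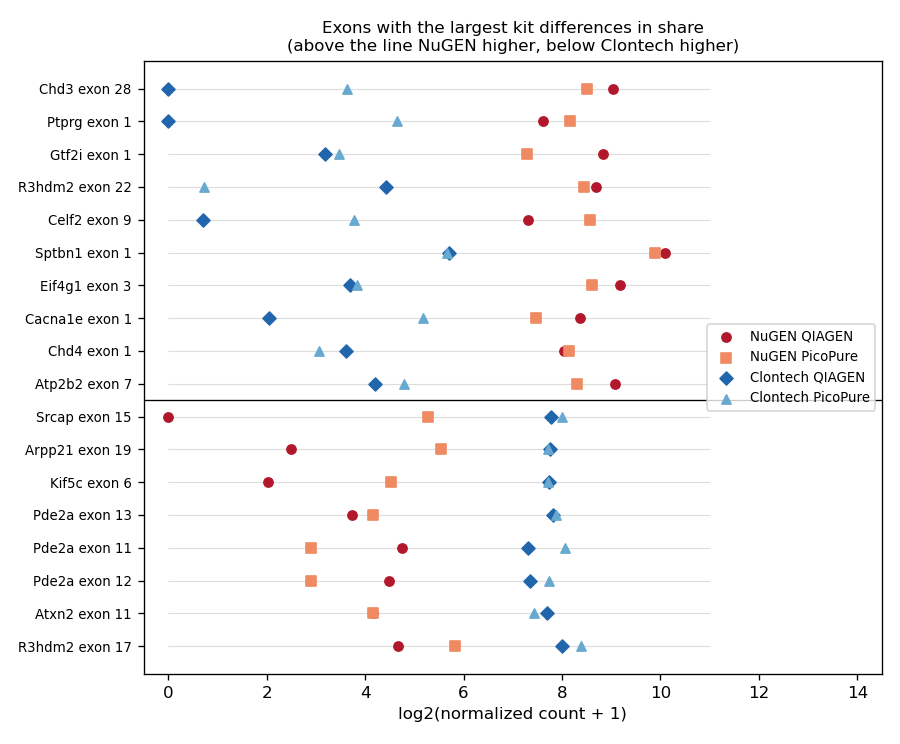
Normalized counts on a log2(count + 1) scale (x axis) in each library for the 10 exons with the largest difference in share toward NuGEN (above the line) and 8 of the 10 toward Clontech (below it). The libraries of a kit lie on the same side in each row, for example 1095 and 949 against 51.2 and 49.5 for *Sptbn1* exon 1.

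Genes with the most called exons included *Huwe1*, which encodes a ubiquitin ligase (15 higher with NuGEN and 17 with Clontech of 85 tested), *Dync1h1*, the cytoplasmic dynein heavy chain gene (18 and 13 of 76), *Kif1a*, a kinesin of synaptic vesicle precursors (11 and 15 of 52), *Sptan1*, the alpha-II spectrin gene (12 and 13 of 51), and *Synj1*, which encodes a phosphoinositide phosphatase of synaptic vesicle recycling (11 and 14 of 33). Exons in both directions were thus found in each of them. Called exons are counted per gene here, so genes with more tested exons have more. *Acsf3* had the most (30 and 22 of 214), and *Emc1* had 14 and 17 of 132. Both have far more numbered exons than merged exons in GENCODE vM21. Over all tested exons of long genes 17.4% were called.

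No exon share passed the test between RNA samples. Of 18026 exons, 0 differed between PicoPure and QIAGEN in limma at an adjusted p under 0.05, and 997 (5.53%) had an unadjusted p under 0.05. edgeR and DESeq2 on the recovered reads called 0 as well. Over all 73689 exons 0.00407% passed. The largest values among abundant exons were those of *Srcap* exon 15, *Atrn* exon 13 (1.53 and 92.0 counts with NuGEN, 168 and 238 with Clontech), *Ptprg* exon 1, *Celf2* exon 9 and *Cadps* exon 35 toward PicoPure. Toward QIAGEN they were *R3hdm2* exon 22, *Ctnna2* exon 1 (176 and 168 with NuGEN, 65.0 and 10.02 with Clontech), *Wdfy3* exon 1 (251 and 49.2, 154 and 123), *Usp9x* exon 9 (30.7 and 7.78, 223 and 159) and *Olfr1556-ps1* exon 16, a symbol with 34 numbered exons and 1 in GENCODE vM21 (*Ctnna2* has 31 and 22). Their adjusted p-values lay between 0.15 and 0.98 (limma), and 8 of the 10 changed sign with a library left out. The fits with a library left out had no kit term, so the kit difference enters the RNA difference there. Each of the 10 had the same sign in both kits, since they were chosen so. These sign changes therefore do not measure how stable the RNA difference was.

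To see how alike whole profiles were, log2 exon shares were correlated between libraries within each of 455 genes with 20 or more tested exons. The exons of a gene share its libraries and are not independent, so these values are descriptive. The median Pearson's r was 0.55 between the NuGEN libraries and 0.62 between the Clontech libraries, each pair from different RNA. Between kits from the same RNA it was 0.13 (QIAGEN) and 0.19 (PicoPure). In 355 of 455 genes both same-kit values were above both same-RNA values, and in 3 genes it was the reverse. In most of these genes the profile was thus more alike within a kit than within an RNA sample.

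**Figure D4:**
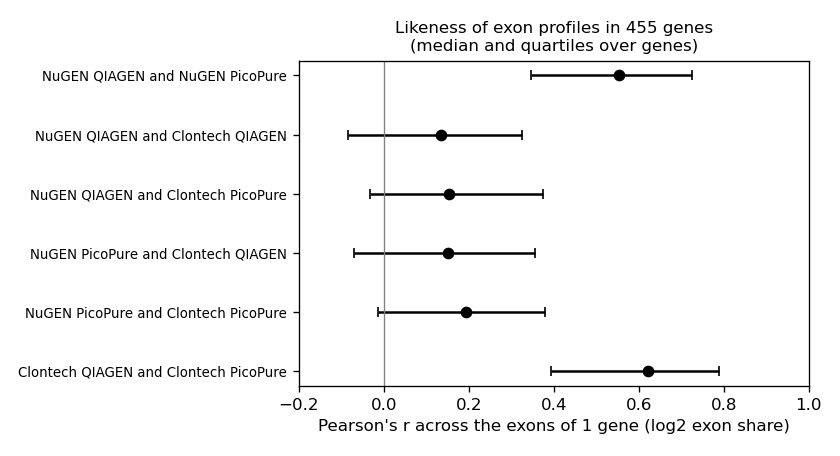
Pearson's r across the exons of a gene (x axis, log2 exon share) for each pair of libraries (y axis) in 455 genes, with the median as a point and the quartiles as bars. The same-kit pairs have medians of 0.55 and 0.62 and the pairs across kits 0.13 to 0.19.

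Per gene, the 5′ end was measured as the log2 ratio of the mean count per exon in decile 1 to that in deciles 4 to 7, after adding 1 to each. Of the 647 genes, 129 (19.9%) were higher with NuGEN and 11 (1.70%) with Clontech, with a median log2 difference of 1.06. Over the 4112 genes with 10 or more exons the shares were 29% and 0.924%, with a median of 1.69. The difference was positive in 493 of the 647 genes. Without adjustment 222 genes had a limma p under 0.05. When first and last exons were left out, 0 genes passed, with a median of 0.65, and with the median exon of a decile 0 passed, with a median of 1.04. Without NuGEN QIAGEN or NuGEN PicoPure 0 passed, with medians of 1.09 and 1.01, and without Clontech QIAGEN or Clontech PicoPure 74 and 101. In the 4 fits with 0 calls 158 to 185 genes had an unadjusted limma p under 0.05.

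The largest called differences toward NuGEN were those of *Thoc2*, a subunit of the mRNA export complex (decile 1 at 20.7 and 18.1 counts per exon with NuGEN and 0 and 0.167 with Clontech), *Heatr1*, a gene of ribosome synthesis (29.9 and 44.1 against 0 and 5.01), *Eif4g1* (381 and 267 against 9.58 and 10.7), *Vps50*, which serves recycling of endosomes (149 and 77.8 against 8.75 and 2.67), and *Tnrc18* (67.5 and 71.3 against 0.417 and 3.12). The order changed with the pseudocount, and with 10 in place of 1 *Eif4g1* came first (4.85) and *Thoc2* last of the 5 (2.44). *Eif4g1* was the best counted of them, with a log2 difference of 5.71 (standard error 0.42, limma adjusted p = 0.0022). The deciles 4 to 7 of *Eif4g1* had 124 and 131 counts per exon with NuGEN and 246 and 220 with Clontech, so both parts of the gene differed, in opposite directions. *Eif4g1* spans chr16:20668313-20692884 on the + strand of GRCm38.

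Toward Clontech, 4 of the 5 largest were those of *Map4k4*, a stress kinase gene (0 and 13.8 against 54.6 and 47.2), *Cask*, a presynaptic scaffold gene (0 and 1.73 against 22.7 and 16.3), *Nav1*, which encodes a neuron navigator protein (0 and 0 against 2.92 and 2.23), and *Med12*, a subunit of Mediator (0 and 3.37 against 7.75 and 10.96). *Map4k4* had a log2 difference of -3.93 (standard error 1.06, limma adjusted p = 0.037).

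The 3′ end, decile 10 over deciles 4 to 7, differed in both directions. It was higher with NuGEN in 56 genes (8.66%, against 8.51% of all) and with Clontech in 34 (5.26%, against 6.71%), and the median log2 difference was 0.17. Leaving out first and last exons gave 32 genes, and thinning to the smallest library gave 51. Without Clontech QIAGEN 37 passed, and without NuGEN QIAGEN or Clontech PicoPure 57 and 59. *Med14*, another Mediator subunit, had 105 and 102 counts per exon in decile 10 with NuGEN, where Clontech gave 23.6 and 23.7 (log2 3.32, standard error 0.41, limma adjusted p = 5e-05). *Cux1*, *Ltbp4*, *Asap2* and *Uckl1* were also higher with NuGEN. *Hdac4*, which encodes a histone deacetylase, had 19.9 and 26.2 against 109 and 118 (log2 -2.99, standard error 0.53), and *Xpo5*, the exporter of microRNA precursors, 11.1 and 11.99 against 67.6 and 60.1 (log2 -3.31, standard error 0.68). *Tonsl*, *Cul9* and *Zfp280d* were also higher with Clontech. *Uckl1*, *Tonsl* and *Zfp280d* have 16, 27 and 28 merged exons in GENCODE vM21.

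The slope, deciles 8 to 10 over deciles 1 to 3, was higher with NuGEN in 47 genes (7.26%, against 4.01% of all) and with Clontech in 94 (14.53%, against 29.2%). The median log2 difference was -0.22, against -0.89 over all genes tested. Among genes with 40 or more exons 24 were higher with NuGEN and 21 with Clontech. Without Clontech QIAGEN or Clontech PicoPure 74 and 76 genes passed in place of 141. In *Atxn2* the last deciles held 208 and 103 counts per exon with NuGEN and 28.1 and 20.2 with Clontech, while the first held 21.1 and 13.1 against 88.5 and 67.6 (log2 4.72, standard error 0.33, limma adjusted p = 2.6e-07). The coverage of *Atxn2* was thus tilted toward the 3′ end in NuGEN and toward the 5′ end in Clontech. *Ubap2*, *Ankhd1* and *Rb1*, the retinoblastoma gene, went the same way.

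The opposite tilt was largest in both translation initiation scaffolds. *Eif4g1* had 347 and 320 counts per exon in its first deciles with NuGEN and 34.2 and 30.7 with Clontech, and 56.9 and 71.4 against 121 and 100.3 in its last (log2 -4.10, standard error 0.28, limma adjusted p = 1.9e-07). *Eif4g3* had 81.6 and 122 against 9.18 and 9.56 in its first deciles and 80.8 and 88.1 against 84.9 and 102 in its last (log2 -3.42, standard error 0.30). *Cast*, the calpastatin gene, *Dis3l2*, which encodes an exonuclease and has 24 merged exons in GENCODE vM21, and *Zmym4* followed with fewer counts. Between RNA samples 0 of 647 genes differed in slope, 45 had an unadjusted p under 0.05 in limma, and 0.0486% of all genes passed. No other tool was run on this measure.

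By number of exons, the median 5′ end difference was 1.16 in genes with 30 to 39 exons, 1.00 with 40 to 59 and 0.66 with 60 or more, beside 1.86 in genes with 10 to 29. The slope difference was -0.30, -0.09 and -0.14, beside -1.04. The difference between these classes was not tested. The quartiles of the classes overlap in all 3 measures.

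**Figure D5:**
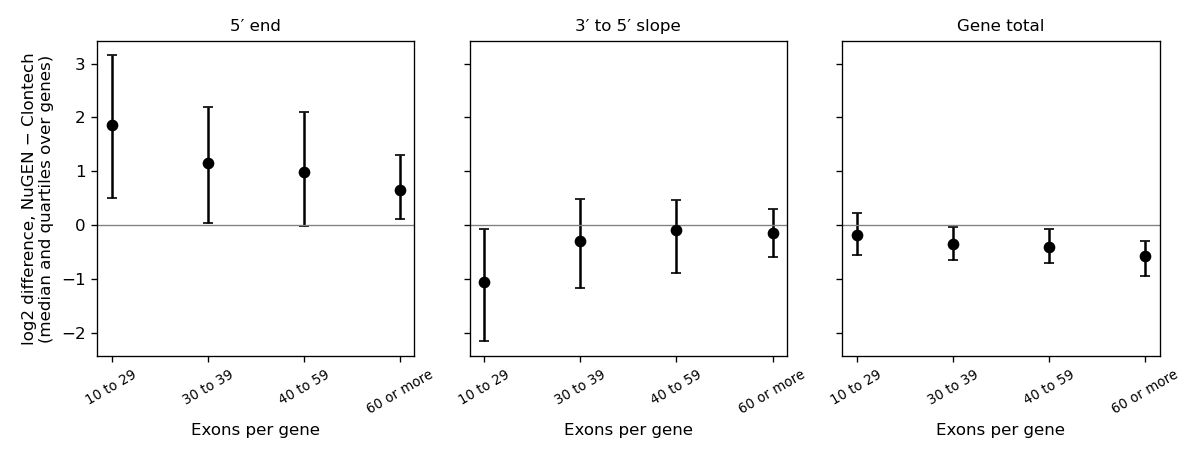
Median log2 difference NuGEN minus Clontech with quartiles over genes (y axis) for the 5′ end, the slope and the gene total by number of exons per gene (x axis). The 5′ end median goes from 1.86 in genes with 10 to 29 exons to 0.66 in genes with 60 or more, and the gene total from -0.18 to -0.58.

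Gene totals, from the gene counts, were lower with NuGEN for most long genes. Of 647 genes, 237 (36.6%, against 10.5% of 13044 genes tested) were higher with Clontech and 32 (4.95%, against 10.8%) with NuGEN, with a median log2 difference of -0.38 (-0.04 over all genes). The median was -0.34, -0.39 and -0.58 in genes with 30 to 39, 40 to 59 and 60 or more exons. With edgeR 208 and 35 genes passed and with DESeq2 172 and 27. With any 1 library left out, and then only 1 term in the fit, at most 1 gene passed.

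Between RNA samples 65 long genes (10.05%, against 1.45% of all) were higher with PicoPure and 0 with QIAGEN (against 0.314%), with a median log2 difference of 0.19, and -0.03 over all genes. Without adjustment 187 genes had a limma p under 0.05, and edgeR and DESeq2 called 62 and 56, all toward PicoPure. Of the 61 genes with 60 or more exons, 17 passed. No gene passed with any 1 library left out or without the kit term, and summed exon counts in place of the gene counts gave 38 toward PicoPure and 1 toward QIAGEN. The sum of oligodendrocyte markers was lower with PicoPure in both kits, though *Mog* was higher with PicoPure in the NuGEN libraries (63.3 and 145). The part of this sum in these differences was not tested. In bulk tissue fewer cells of a type and less RNA per cell cannot be told apart.

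The results were also read by protein class, with 18 lists that hold 162 genes, of which 118 were members. The counts are to be read against all 647 long genes, where 19.9% had a higher 5′ end with NuGEN and 1.70% with Clontech (median 1.06), 36.6% a higher total with Clontech and 10.05% a higher total with PicoPure. No list was tested against other genes. Among 6 spectrins and ankyrins, which form the membrane skeleton, 5 had a higher 5′ end with NuGEN and 0 with Clontech, with a median of 1.60. Exon 1 of *Sptan1* had 991 and 1059 counts with NuGEN and 176 and 186 with Clontech, or 7.40 and 6.37% of the gene against 0.852 and 0.797%. In *Sptbn1* the 5′ end differed by 3.50 (standard error 0.29, limma adjusted p = 0.0027). Of 233 exons tested in this list, 36.9% were called, beside 17.4% over all exons of long genes. Well counted exons were called more often in any long gene. With a mean of 50 or more counts, 2620 of 6889 exons of long genes were called. So the share in this list is not read as particular to it. The gene total was higher with Clontech in 4 of the 6.

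Of 8 pore subunits of voltage-gated calcium channels, 2 had a higher 5′ end with NuGEN and 1 with Clontech, beside 19.9% and 1.70% of long genes. *Cacna1e* was higher with NuGEN (log2 3.14, standard error 0.48, limma adjusted p = 0.0088). *Cacna1a*, the P/Q-type subunit gene, was higher with Clontech (-1.74, standard error 0.42, adjusted p = 0.027), and its exon 1 was at 0 in all 4 libraries. Its slope was higher with NuGEN (1.56, adjusted p = 0.00034). Of 5 calcium release channels of the endoplasmic reticulum, 0 passed for either end or the slope, and 3 had a higher total with Clontech. *Ryr2*, the ryanodine receptor of heart and brain, had totals of 2386 and 3912 normalized counts in the NuGEN libraries, below the Clontech totals of 6088 and 8916. Its total was lower with NuGEN (-1.27, standard error 0.11, limma adjusted p = 8.4e-12) and higher with PicoPure (0.63, adjusted p = 0.00023), and its exon 1 share did not separate the kits (0.987 and 1.72% against 1.31 and 1.38%). *Itpr1*, the inositol trisphosphate receptor gene, had a total difference of -1.13 by kit.

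Of 7 presynaptic active zone genes, 2 had a higher 5′ end with NuGEN. *Synj1* differed by 2.99 (standard error 0.33, adjusted p = 0.004), with exon 1 at 3.02 and 3.43% against 0.616 and 0.695%. *Pclo*, which encodes the giant active zone scaffold Piccolo, differed by 1.80 at the 5′ end and by -2.29 in slope (adjusted p = 2.2e-05), and its gene total was higher with NuGEN (0.37), while 5 of the 7 were higher with Clontech. *Pclo* has 24 merged exons in GENCODE vM21 and 32 in the table. Of 6 receptor tyrosine phosphatases, 1 had a higher 5′ end with NuGEN. *Ptprd* had a slope difference of -1.34 and *Ptprs* of 1.21, so these related adhesion phosphatases tilted in opposite directions.

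Of 11 dynein and myosin heavy chains, 2 had a higher 5′ end with NuGEN and 7 a higher total with Clontech. *Dync1h1* had 4175, 6592, 8804 and 12563 normalized counts in the order of the libraries, and both its kit difference (-1.003, standard error 0.10) and its RNA difference (0.59, standard error 0.10) passed. Its 5′ end did not (0.13, adjusted p = 0.76), although exon 1 took 3.55 and 4.16% with NuGEN and 0.896 and 0.890% with Clontech. *Myo5a*, an organelle motor gene, differed by 1.56 at the 5′ end (adjusted p = 0.026). In the 4 cytoskeletal linker giants 0 passed at the 5′ end, and *Macf1* and *Dst*, the spectraplakins, had totals lower with NuGEN by a log2 of -1.02 and -0.96. *Dnah9*, the single axonemal dynein heavy chain among the members, had exon 1 at 26.1 and 45.4 counts with NuGEN and 0 and 0 with Clontech.

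All 8 large ubiquitin ligases had a higher total with Clontech (median -0.99). So did all 10 VPS13 and BEACH domain proteins, which serve lipid transfer and membrane traffic (median -1.04). Beside these stood 36.6% of long genes (median -0.38), 19.9% of genes with 10 to 29 exons (median -0.18) and 10.5% of all genes tested. Of the 61 genes with 60 or more exons, a number that *Huwe1*, *Mycbp2*, *Nbea* and *Wdfy3* reach, 62.3% were higher with Clontech (median -0.58). *Huwe1* had 2519, 2739, 4699 and 5319 normalized counts, and exon 1 at 42.9 and 10.4 with NuGEN and 0 and 0 with Clontech. *Mycbp2*, another ligase gene, had a 5′ end difference of -0.02. *Nbea*, a BEACH domain gene of membrane protein traffic, had exon 1 at 347 and 276 counts against 28.7 and 32.7 (5′ end 1.66, adjusted p = 0.02). *Wdfy3*, of selective autophagy, had 251 and 49.2 against 154 and 123, so its libraries overlapped between kits. These totals are normalized counts within the same libraries and say nothing of a level per length.

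The 4 PI3K-related kinases had 0 genes past the test at the 5′ end, with exon 1 of *Mtor*, the nutrient-sensing kinase gene, at 4.81 and 5.58% against 0.887 and 0.874% and that of *Trrap* at 3.54 and 2.81% against 0.569 and 1.54%. Of 5 GTPase-activating proteins and huntingtin, 1 was higher with NuGEN at the 5′ end and 1 with Clontech. Exon 1 of *Htt*, the huntingtin gene, took 12.1 and 9.87% with NuGEN and 1.45 and 1.43% with Clontech (5′ end 1.95, standard error 0.43, limma adjusted p = 0.021), and *Ralgapa1* had 4.39 and 4.73% against 0.283 and 0.490%.

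Among nuclear proteins, 4 of 15 chromatin remodellers and methyltransferases had a higher 5′ end with NuGEN and 0 with Clontech, with a median of 1.14, beside 19.9% and 1.06 of long genes and 29% and 1.69 of all genes tested. *Chd3* differed by 2.45 (adjusted p = 0.0089). *Kmt2d*, a histone methyltransferase gene, did not pass at the 5′ end (0.40), and its total was higher with NuGEN (0.89). Of 7 genes of core transcription and splicing, 2 were higher with NuGEN and 1, *Med12*, with Clontech. The last exon of *Med12* took 56.0, 45.8, 57.6 and 54.9% of its counts, alike in all 4 libraries. *Prpf8*, the core spliceosome gene, had -0.74 at the 5′ end (adjusted p = 0.24).

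Among surface and matrix genes, 0 of 4 lipoprotein receptors and secreted matrix genes and 0 of 3 basement membrane genes passed at the 5′ end, while 2 in each list had a higher total with PicoPure, beside 10.05% of long genes and 1.45% of all genes tested. In genes with 10 to 29 exons that share was 2.02%. The 5 endothelial markers summed to 483 and 354 with NuGEN and 409 and 323 with Clontech, lower with PicoPure in both kits. The markers did not all go this way. *Flt1*, *Ly6c1* and *Slco1a4* were lower with PicoPure in both kits. *Cldn5* was higher in both (16.7 and 64.6, 1.93 and 29.2), and *Pecam1* was higher with Clontech only (2.57 and 41.0). The part of these markers in the totals was not tested. *Lrp1*, the endocytic receptor gene, had totals of 1954 and 3762 in the NuGEN libraries and 2627 and 4761 in the Clontech libraries, higher with PicoPure in both kits (0.90, standard error 0.12, limma adjusted p = 2.8e-06). *Lrp1b* was higher with PicoPure by 0.99 (adjusted p = 1.5e-07), and *Col4a1*, a collagen chain gene of vessels, by 0.90 (adjusted p = 0.039). *Lamb1* had exon 1 at 47.5 and 49.2 counts with NuGEN and 0 and 16.0 with Clontech. Of 8 genes of lipid synthesis and ABC transport, 1 passed at the 5′ end, and the totals of *Abca2* and *Fasn*, the fatty acid synthase gene, differed by 0.04 and 0.05 between kits.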

How the data were processed

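RNA-Seq of 4 libraries was used, and 3 sheared libraries were left out because their table has no exons. The authors trimmed reads with Sickle, aligned them with STAR 2.4.1d to mm10 with GENCODE gene models, counted with featureCounts and normalized with DESeq2, and deposited the signal values as normalized counts per exon piece and per gene. Dividing each column by its smallest value gave whole reads throughout, to within 0.01 read. How reads in several pieces or overlapping genes were assigned is not given in the sources used here.

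An exon was its highest piece. Shares were log2((exon + 1)/(gene sum + number of exons)). Tests used limma 3.58.1 (lmFit, eBayes with a trend) in R 4.3.3 with kit and RNA as additive terms, 1 residual degree of freedom and Benjamini-Hochberg adjustment over all exons or genes tested, called under 0.05. The prior degrees of freedom were infinite for exon shares, 5.44 for the 5′ end, 15.2 for the 3′ end, 13.4 for the slope and 36.2 for gene totals. Gene totals needed 10 counts in 2 libraries. edgeR 4.0.16 and DESeq2 1.42.0 on recovered reads were alternatives, and other scripts ran in Python 3.11.15. The limma fits of exon share and of the slope were also run on simulated data, made with the same spread setting for all exons. The outcome is not given here, so no error rate is claimed for these fits. With 2 libraries against 2 an exact permutation test of a single value cannot go below 0.333.

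The members and lists were chosen with earlier results of these data known. Named exons were the 10 largest called kit differences in each direction with a mean of at least 100 counts and the same sign in both RNA samples, and 5 in each direction for RNA. Named genes were the 5 largest in each direction for each end and the slope, and the 2 best counted members of each list. The 14 predicted or clone symbols enter the counts without being named. Of the tested exons, 323 had the same 4 values under another gene. Results of some named exons and genes and of 1 list are not reported here.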

Additional observations from a re-analysis of the deposited data

How the results depend on the processing

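Each result was recomputed under other settings, of which exons shared with another gene left out, genes with over 100 exons left out, symbols with under 30 merged exons in GENCODE vM21 left out, and counts per kilobase were chosen after seeing the data. No kit difference of a named exon or gene turned its direction. Of the 10 exons named by RNA sample, none of which passed, 8 turned with a library left out, with differences from -1.10 to 6.51 for *Srcap* exon 15, -0.38 to 5.07 for *Atrn* exon 13, -1.77 to 6.30 for *Ptprg* exon 1, -1.49 to 4.86 for *Celf2* exon 9, -5.70 to 1.58 for *R3hdm2* exon 22, -4.06 to 0.58 for *Ctnna2* exon 1, -3.09 to 0.16 for *Usp9x* exon 9 and -3.63 to 0.71 for *Olfr1556-ps1* exon 16. The fits with a library left out held no kit term, so the kit difference enters them, and these turns do not measure the RNA difference. The median RNA difference in exon share, 0.07, was -0.09 without NuGEN QIAGEN, also with no kit term. The count of exons with a kit difference in share, 3129, was 1713 with first and last exons left out and 1910 with edgeR, and 1402 to 2163 with each library left out in turn. For RNA the 0 exons became 7 with pieces summed. For the 5′ end, 140 genes became 50 among genes with 40 or more exons, 0 with the median exon, 0 without first and last exons, and 0 to 101 with a library left out. For the 3′ end, 90 became 25, 1 and 32 under these settings, 51 after thinning and 37 to 85 with a library left out. For the slope by kit, 141 became 45 and 8 among genes with 40 or more exons and with the median exon, and 74 to 130 with a library left out, and for the slope by RNA 0 became 5 after thinning. Gene totals by kit fell from 269 to 94 without the RNA term and to 0 to 1 with a library left out. By RNA 65 became 39 with summed exons, 0 without the kit term and 0 in each case with a library left out.

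The ratio of NuGEN to Clontech in decile 1, 2.01, was 2.09 with pieces summed, 1.99 with the highest piece in each library, 1.86 as a mean over genes, 1.61 without first and last exons, 1.93 with a minimum of 500 counts, 1.83 with 40 or more exons, 1.98 after thinning, 1.97 without symbols of under 30 merged exons and 1.82 per kilobase. In deciles 4 to 7, 0.837 became 0.802 with pieces summed, 0.891 as a mean, 0.867 without first and last exons, 0.844 with 500 counts, 0.831 without those symbols and 0.875 per kilobase. In decile 10, 1.00 became 1.02 without first and last exons, 1.03 with 40 or more exons and 1.03 per kilobase. Among the 20 exons named by kit, 272 recomputed calls held and 3 were lost. For the named genes 61 held and 56 were lost at the 5′ end, 70 and 43 at the 3′ end and 94 and 20 for the slope. The fits paired the kits by RNA sample, and with the RNA term left out 2156 exons and 140, 70 and 131 genes (5′ end, 3′ end, slope) passed. Depth limits low exons most, with a read worth 1.53 and 1.30 normalized counts in the NuGEN and 0.625 and 0.668 in the Clontech libraries.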
